A study of Mus musculus with 55 samples.

Results

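Arc, the gene of the activity-regulated cytoskeleton-associated protein, was followed in cultured mouse neurons across every stage, stimulus and time of the study and in both of its unstimulated states. It was found by matching the RefSeq accessions of the count tables to mouse gene symbols and keeping, for each gene, the transcript with the most counts. This gave 1 gene, Arc, of 28488 in the maturation experiment and of 28212 in the stimuli experiment. Arc lies on the minus strand of chromosome 15, from 74669081 to 74672570 (GRCm38.p6, the build named mm10 in the submitters' processing notes), and 0 other annotated genes overlap it. The tables listed 2 RefSeq transcripts of Arc, which had identical counts in all 28 and all 27 samples, so the choice between them changed no value.

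Arc is an immediate early gene. Its mRNA is made soon after synaptic activity or depolarization, is carried into dendrites and is translated near active synapses. The protein takes part in the endocytosis of AMPA-type glutamate receptors, and so in the weakening and scaling of synapses. Its coding sequence derives from the gag gene of a retrotransposon, and the protein can assemble into capsid-like shells. SRF, MEF2 and CREB, which bind its enhancer and promoter, are among the factors known to drive its transcription.

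Primary neurons were taken from the cortex and hippocampus of CD1 embryos of mixed sex at embryonic day 16 to 17.5, with no genetic change in any group, and 3′ ends of their mRNA were counted by CEL-Seq2. The maturation experiment held neurons after 7 days in vitro (7DIV) and mature neurons that the study names 21DIV (23 DIV in the sample titles). At each stage there were 3 unstimulated samples (basal). Stimulated samples received either 55 mM KCl, which depolarizes the membrane of every neuron, or bicuculline (50 μM), which blocks GABA-A receptors, together with 4-aminopyridine (2.5 mM), which blocks potassium channels (Bic/4AP). Both treatments lasted 15 or 180 min, with 3 samples in each group except the Bic/4AP groups at 21DIV, which had 2. The stimuli experiment held mature neurons only. Here 3 samples were basal, while KCl (55 mM) and bicuculline alone (Bic, 50 μM) were applied for 15, 45 or 180 min to 2 samples each. A further 4 samples were silenced with 1 μM tetrodotoxin (TTX), a blocker of voltage-gated sodium channels, for 48 h (basal TTX). In TTX withdrawal (TTXw), neurons silenced in the same way were washed free of the toxin and collected 15 min (n = 3), 45 min (n = 2) or 180 min (n = 3) later. Basal TTX is the control for TTXw, and basal is the control for Bic and KCl. The cultures hold more than 1 cell type, so an Arc level here is an average over the cells of a well.

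Sequencing depth, taken as the counts that fell on named genes, was 1659263 to 14008626 for samples of the maturation experiment and 1176887 to 3907601 for those of the stimuli experiment. Arc had 14 to 2287 counts per sample in the former and 18 to 4605 in the latter. The exact 95% interval of these counts, which covers counting error only, spanned between 4.12% and 56.6% of the value to either side in the maturation experiment and between 2.90% and 49.4% in the stimuli experiment. The widest intervals belong to the samples with the fewest Arc counts. All 9 neuron markers (such as Rbfox3, Map2 and Snap25) had counts in every group. Astrocyte markers were present in every group too, whereas the summed microglia markers reached at most 20.1 CPM as a group mean. Levels below are counts per 1000000 counts (CPM) after scaling by TMM, given as mean ± SD. A gene was called changed (a DEG) when edgeR's quasi-likelihood test gave an adjusted p under 0.05 over all genes tested and a fold of at least 1.5. The experiments were scaled separately, so no test joins them.

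The first question was how much Arc mRNA unstimulated neurons hold at each stage. At 7DIV, the basal samples had 20.4, 30.1 and 15.4 CPM, a mean of 22 ± 7.44. At 21DIV, they had 75.8, 80.7 and 98.8 CPM, a mean of 85.1 ± 12.2. The lowest mature sample lay above the highest immature one. Basal Arc was 4.11-fold higher at 21DIV (95% interval 2.91 to 5.79; log2 fold change 2.04, SE 0.23, adjusted p = 1.22e-05, edgeR). Maturation changed much of the transcriptome, and 18.2% of the 10506 genes tested were called higher and 14.9% lower at 21DIV. Arc stood at place 471 in the order of fold changes from the highest down.

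Other cell types changed over the same interval. The 8 astrocyte markers summed to 614 CPM (505.6 to 763.7) at 7DIV and to 4987 CPM (4381 to 5546) at 21DIV, with none of them at 0 and 7 called higher. The 8 markers of the oligodendrocyte lineage summed to 603 CPM (459.6 to 714.4) and to 2790 CPM (2356 to 3108), and all 7 that were tested were called higher. The 9 neuron markers summed to 4302 CPM and 5690 CPM. Set against the neuron markers, Arc stood at 5.15 ± 1.90 CPM per 1000 CPM of these markers at 7DIV and at 14.9 ± 1.15 at 21DIV, a ratio of 2.90 where the means of Arc itself gave 3.87. The part of these shifts in the result was not tested, and in bulk samples fewer cells of a type and less RNA per cell cannot be told apart.

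No change in Arc was detected in stimulated immature neurons. After KCl, the 7DIV samples had 10.1, 22.2 and 10.2 CPM at 15 min, a mean of 14.2 ± 6.97. At 180 min, they had 6.0, 18.7 and 15.9 CPM, a mean of 13.6 ± 6.68. Both KCl groups overlapped the basal samples and reached below them. With Bic/4AP, they had 24.7, 26.8 and 21.4 CPM at 15 min (24.3 ± 2.72) and 25.6, 19.95 and 18.6 CPM at 180 min (21.4 ± 3.74), again within the basal range.

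None of these 4 comparisons passed the test for Arc. The log2 fold changes with KCl were -0.50 at 15 min (95% interval -1.40 to 0.40, adjusted p = 0.932, edgeR) and -0.62 at 180 min (-1.56 to 0.32, adjusted p = 0.641, edgeR). With Bic/4AP, they were 0.21 at 15 min (-0.67 to 1.09) and 0.02 at 180 min (-0.85 to 0.90). The upper ends of these intervals are folds of 1.32 and 1.25 for KCl and of 2.13 and 1.86 for Bic/4AP at 15 and 180 min, and inductions up to these sizes are not excluded by the intervals. At 180 min of KCl, 1.05% of the 11742 genes tested were called higher, and Arc was not one of them. In that comparison, 13 of 30 other activity-regulated genes rose, among them Fos by 2.03 and Npas4 by 1.94 on the log2 scale, and all 30 had a higher fold change than Arc.

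In mature neurons of the same experiment, Arc was called higher at both times of Bic/4AP and at 15 min of KCl, and the KCl call depended on single samples. With Bic/4AP, the 21DIV samples had 374 and 298 CPM at 15 min (336 ± 53.9) and 421 and 308 CPM at 180 min (365 ± 80.2). Every one of these 4 samples lay above the 3 basal ones, whose highest value was 98.8 CPM. Arc rose 3.93-fold at 15 min (95% interval 2.37 to 6.52; log2 1.98, SE 0.36, adjusted p = 0.0110, edgeR) and was 1 of the 6 genes, 0.0511% of 11742, that were called higher at that time. At 180 min, it stood 4.28-fold over basal (2.59 to 7.07; log2 2.10, SE 0.35, adjusted p = 0.000131, edgeR), when 7.39% of the genes tested were called higher and 6.83% lower. The values at 15 and 180 min overlapped, with a log2 difference of 0.12 (-0.67 to 0.92, adjusted p = 0.875, edgeR). The call at 15 min needed all 5 samples of its comparison, since leaving out any one of them gave adjusted p between 0.0533 and 0.374, with log2 fold changes from 1.80 to 2.14. The astrocyte markers summed to 2391 CPM (1654 to 3128) at 180 min of Bic/4AP, below the basal 4987, and the oligodendrocyte lineage markers to 1299 CPM (995.8 to 1601) against 2790, and their part in the result was not tested. Per 1000 CPM of neuron markers, Arc at 180 min was 5.17 times its basal level.

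With KCl at 21DIV, the mean levels lay below those with Bic/4AP, and the samples at 15 min were uneven. At 15 min, the 3 samples had 159, 349 and 75.3 CPM, a mean of 195 ± 140.5 with the lowest sample just below the basal range of 75.8 to 98.8 CPM. At 180 min, they had 178, 126.5 and 162 CPM (156 ± 26.4), all of them above the basal samples. Arc was called higher at 15 min by 2.27-fold (1.43 to 3.59; log2 1.18, SE 0.32, adjusted p = 0.0208, edgeR), when 3.2% of genes were called higher and 3.01% lower. This call rested on replicate 2, and without that sample the log2 fold change was 0.47 (adjusted p = 0.377, edgeR). Without replicate 3, the lowest sample, it was 1.56 (adjusted p = 0.00083, edgeR). Under DESeq2 the adjusted p was 0.0502 (log2 1.2), which ends the call. The call was also lost without any one of the basal samples, with adjusted p of 0.0528, 0.101 and 0.0512. At 180 min, Arc did not pass (1.82-fold, 1.15 to 2.89; log2 0.87, SE 0.32, adjusted p = 0.112, edgeR), although the groups did not overlap and 2.98% of genes were called higher. Fitted on the compared samples alone, KCl at 180 min passed (log2 0.88, adjusted p = 0.0189, edgeR), while the call at 15 min was lost (log2 1.19, adjusted p = 0.109, edgeR). Without the filter on low counts, KCl at 180 min passed too (adjusted p = 1.32e-05, edgeR), and with counts summed over transcripts the call at 15 min was lost (adjusted p = 0.0723, edgeR). The log2 difference between the stimuli, Bic/4AP minus KCl, was 0.79 at 15 min (0.07 to 1.52, adjusted p = 0.190, edgeR) and 1.23 at 180 min (0.51 to 1.95, adjusted p = 0.101, edgeR), and neither was called, where 3.01% and 0.281% of genes were called higher.

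The uneven samples of 21DIV KCl at 15 min were looked at after their values were seen. Arc counts were 2185 in replicate 1, 1466 in replicate 2 and 423 in replicate 3, in libraries of 14008626, 4029434 and 5367550 counts. After scaling, replicates 2 and 3 differed by 2.21 on the log2 scale. Of the 30 activity-regulated genes, 16 (53.3%) had the same order of the 3 samples as Arc, where 16.5% of all genes tested did. The median difference between replicates 2 and 3 was 0.33 for these genes and -0.0013 for all genes. Neuron markers summed to 5108, 4777 and 4594 CPM and astrocyte markers to 4646, 4440 and 3991 CPM in replicates 1 to 3. Over the whole experiment, the biological coefficient of variation that edgeR fitted for Arc was 0.294, above that of 99.3% of the 1218 genes of similar level. In the stimuli experiment it was 0.125, above that of 89.0% of 842 genes.

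**Figure D1:**
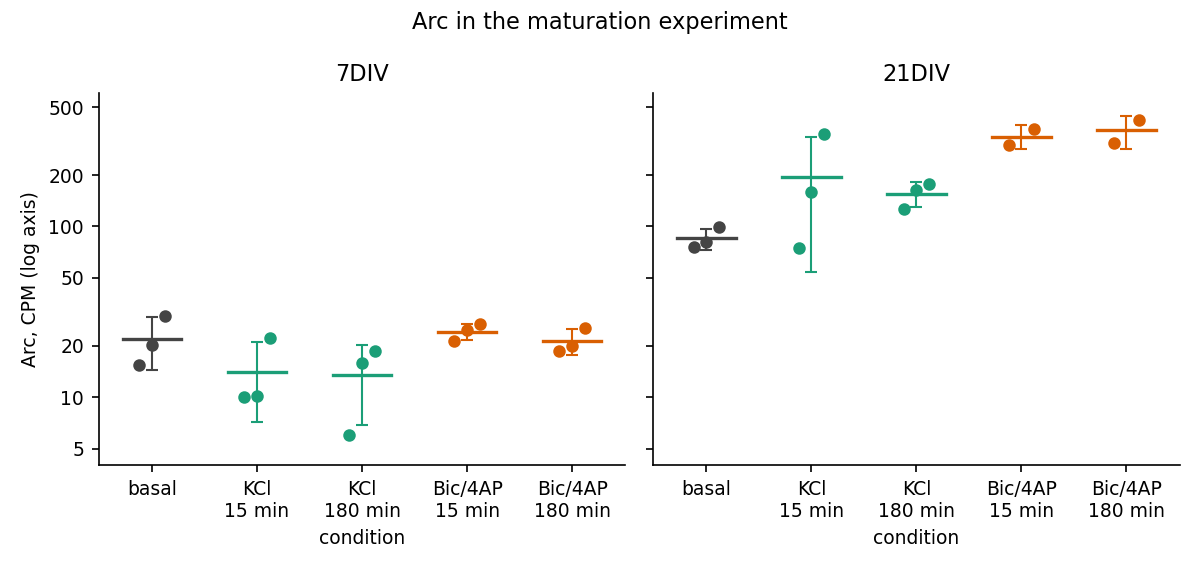
Arc in each sample of the maturation experiment, as TMM-scaled CPM on a log axis, by condition (7DIV on the left, 21DIV on the right; points are samples, wide bars are group means and error bars are 1 SD). Immature samples sit between 6.0 and 30.1 CPM under every treatment, while mature ones lie at 75.8 to 98.8 CPM at rest and reach 421 CPM with Bic/4AP.

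Whether the response itself changed with stage was tested as the difference between the log2 fold change at 21DIV and that at 7DIV. It was positive for both stimuli at both times. For Bic/4AP at 180 min the difference was 2.07 (SE 0.56, adjusted p = 0.0274, edgeR), a 4.21-fold larger response at 21DIV (1.91 to 9.27), in a test that called 2.54% of genes in this direction. The other differences did not pass, at 1.68 for KCl at 15 min (adjusted p = 0.109), 1.49 for KCl at 180 min (adjusted p = 0.206) and 1.77 for Bic/4AP at 15 min (adjusted p = 0.908), all from edgeR. Those tests called 0.843%, 0.434% and 0.00852% of genes in this direction. Without the filter on low counts these 3 differences passed as well (adjusted p = 9.85e-07, 7.45e-05 and 4.77e-06, edgeR), and that for KCl at 15 min also passed in the likelihood ratio test (adjusted p = 0.0272, edgeR). With counts summed over transcripts, which adds the identical counts of both Arc transcripts, the difference for Bic/4AP at 180 min no longer passed (2.10, adjusted p = 0.0501, edgeR). Its call was also lost when any of 6 of its 11 samples was left out, with differences from 1.81 to 2.32 over all 11. Those 6 were replicate 2 of the 21DIV basal and 21DIV Bic/4AP groups and replicates 2 and 3 of the 7DIV basal and 7DIV Bic/4AP groups. Without replicate 2 of 21DIV Bic/4AP, the difference was 1.83 (adjusted p = 0.138, edgeR).

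Ordered by mean level, the 10 conditions of the maturation experiment fell into 3 steps. All 5 conditions at 7DIV came first, from KCl at 180 min up to Bic/4AP at 15 min, and each overlapped the next. The 21DIV basal samples followed, a factor of 3.51 above the last of them and with no overlap. The stimulated 21DIV groups came last, in the order KCl 180 min, KCl 15 min, Bic/4AP 15 min and Bic/4AP 180 min, each again overlapping its neighbour, and the lowest sample of KCl 15 min lay below the basal ones. Of 9 pairs of neighbours, 7 overlapped and 2 stood apart.

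In the stimuli experiment, the next question was how far Arc depends on the spontaneous firing of mature neurons. The basal samples had 25.5, 35.7 and 32.2 CPM (31.2 ± 5.20). After 48 h in TTX, the 4 samples had 13.3, 13.9, 12.9 and 10.9 CPM. Every silenced sample lay below every basal one. Arc fell 2.46-fold (log2 -1.30, SE 0.22, adjusted p = 8.49e-06, edgeR), while 10.8% of the 12023 genes tested were called lower and 10.8% higher, and it held place 414 from the lowest fold change up. Silencing lowered 24 of the 30 other activity-regulated genes, with a median log2 change of -2.27 against 0.00049 for all genes. Bdnf, a secreted neurotrophin, fell by 4.53 and Ptgs2, a prostaglandin synthase, by 3.70, while 11 of the 30 had a fold change above that of Arc. Astrocyte markers moved the other way, from a sum of 2715 CPM (2445 to 2995) to 7691 CPM (6980 to 8122), as did oligodendrocyte lineage markers, from 893 CPM (727.7 to 1157) to 2083 CPM (2054 to 2121), and neuron markers went from 5488 to 4708 CPM. Arc per 1000 CPM of neuron markers was 5.68 ± 0.898 in basal and 2.71 ± 0.341 in basal TTX, a ratio of 2.09, and the part of these shifts was not tested.

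At 45 min, Bic gave the highest Arc level of the stimuli experiment. The samples had 364 and 243 CPM at 15 min (303 ± 85.1), 1097 and 1474 CPM at 45 min (1286 ± 267) and 308 and 258 CPM at 180 min (283 ± 35.6). All 6 lay above the 35.7 CPM of the highest basal sample, and the 45 min samples stood apart from those at the other times.

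Against basal, Arc was 9.92-fold higher at 15 min of Bic (7.74 to 12.7; log2 3.31, SE 0.18, adjusted p = 1.1e-16, edgeR), with 2.4% of genes called higher. At 45 min the fold was 41.5 (32.3 to 53.3; log2 5.38, SE 0.18, adjusted p = 4.37e-24, edgeR), with 4.5% called. At 180 min it was 9.14 (7.15 to 11.7; log2 3.19, SE 0.17, adjusted p = 1.08e-16, edgeR), with 0.69% called. Arc held places 7, 2 and 3 among 12023 genes in these comparisons. The change between times was itself called, as a rise of 2.07 from 15 to 45 min (adjusted p = 3.34e-10, edgeR; 0.133% of genes called higher) and a fall of 2.18 from 45 to 180 min (adjusted p = 4.41e-11, edgeR; 1.83% called lower), both on the log2 scale. Per 1000 CPM of neuron markers, Arc was 7.96, 33.8 and 8.36 times its basal level at these times.

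KCl gave its highest Arc level at the earliest time. The samples had 325 and 400 CPM at 15 min (362 ± 52.6), 81.2 and 108 CPM at 45 min (94.6 ± 19.0) and 92.9 and 90.1 CPM at 180 min (91.5 ± 1.97). The later groups overlapped each other and lay between the basal samples and those at 15 min.

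Arc was 11.7-fold over basal at 15 min of KCl (9.17 to 15.0; log2 3.55, SE 0.17, adjusted p = 5.88e-18, edgeR), at place 8 among all genes, with 4.53% of genes called higher. At 45 min it was 3.05-fold over basal (2.35 to 3.96; log2 1.61, SE 0.19, adjusted p = 1.88e-06, edgeR; 0.607% called), and at 180 min 2.95-fold (2.24 to 3.89; log2 1.56, SE 0.20, adjusted p = 2.41e-06, edgeR; 0.507% called). It fell by 1.94 on the log2 scale from 15 to 45 min (adjusted p = 3.69e-09, edgeR; 0.374% called lower). From 45 to 180 min the difference was -0.05 (-0.45 to 0.36, adjusted p = 0.973, edgeR). Relative to the neuron markers, Arc at 15, 45 and 180 min of KCl was 9.19, 2.60 and 2.61 times its basal level. In the KCl and Bic groups of this experiment, both the neuron and the astrocyte markers summed to more than in basal, for example to 6691 and 5289 CPM at 45 min of Bic.

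Bic and KCl were compared at matched times. At 15 min the log2 difference, Bic minus KCl, was -0.24 (-0.59 to 0.11, adjusted p = 1, edgeR), and the samples overlapped. At 45 min Arc was 13.6-fold higher with Bic (10.4 to 17.8; log2 3.77, SE 0.19, adjusted p = 1.52e-17, edgeR), in a comparison that called 0.499% of genes higher. At 180 min it was 3.09-fold higher (2.37 to 4.04; log2 1.63, SE 0.19, adjusted p = 5.25e-07, edgeR; 0.433% called).

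**Figure D2:**
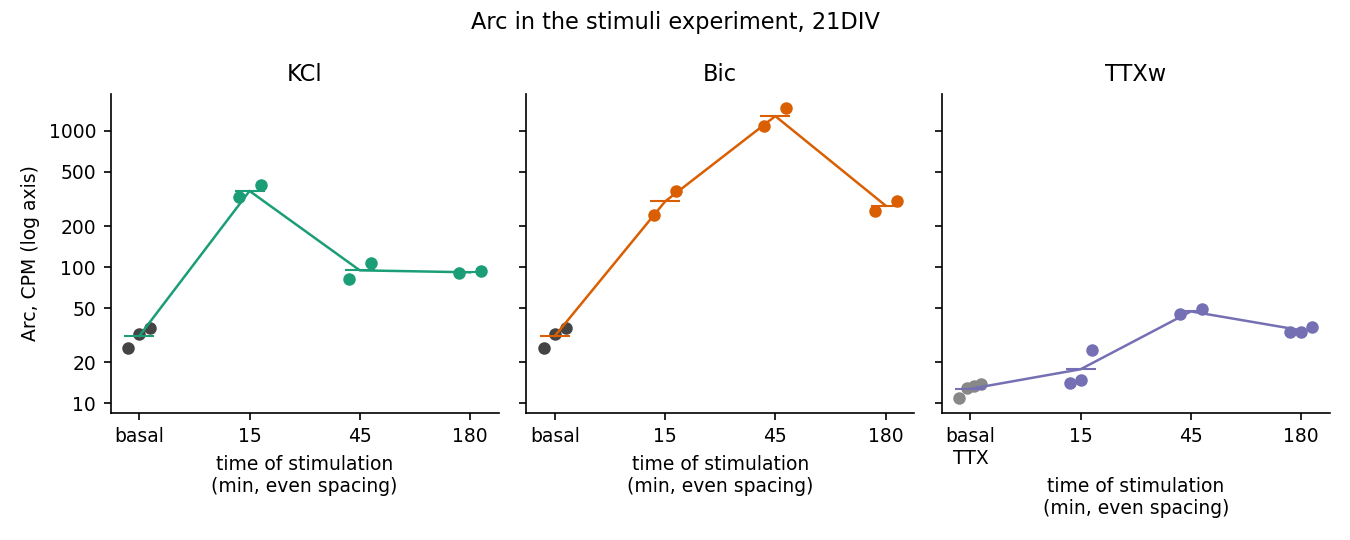
Arc in each sample of the stimuli experiment, as TMM-scaled CPM on a log axis against the time of stimulation in min at even spacing, with 1 panel each for KCl, Bic and TTXw and the matching control at the left (points are samples, and short bars joined by lines are group means). Bic peaks at 45 min with 1097 and 1474 CPM, KCl is highest at 15 min with 325 and 400 CPM, and TTXw runs from 10.9 to 13.9 CPM in the silenced control up to 49.1 CPM.

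After TTXw, Arc came back from its silenced level without reaching that of the other stimuli. The samples had 14.7, 24.4 and 14.1 CPM at 15 min (17.8 ± 5.81), 45.4 and 49.1 CPM at 45 min (47.2 ± 2.63) and 36, 33.6 and 33.4 CPM at 180 min (34.3 ± 1.44). Each of these samples lay above the 13.9 CPM of the highest silenced one, by the least at 15 min, and the 45 min samples lay above all the others.

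At 15 min of TTXw Arc did not pass the test (1.36-fold, 0.953 to 1.95; log2 0.45, SE 0.25, adjusted p = 0.860, edgeR). At 45 min it was 3.76-fold over basal TTX (2.71 to 5.23; log2 1.91, SE 0.23, adjusted p = 7.06e-07, edgeR), at place 33 among all genes, with 0.349% called higher. At 180 min it was 2.73-fold higher (1.98 to 3.77; log2 1.45, SE 0.23, adjusted p = 9.64e-06, edgeR), with 7.33% called higher. The rise of 1.47 on the log2 scale from 15 to 45 min was called (adjusted p = 0.000323, edgeR; 0.258% of genes called higher). The difference from 45 to 180 min, -0.46, was not (-0.91 to -0.02, adjusted p = 0.160, edgeR). Set against basal samples that were never silenced, Arc at 180 min of TTXw differed by 0.15 on the log2 scale (-0.26 to 0.56, adjusted p = 0.583, edgeR), and the values overlapped, while 17.1% of genes were higher and 16.3% lower in that comparison.

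The composition of the RNA moved strongly at 180 min of TTXw. Astrocyte markers summed to 12841 CPM (10395 to 14803), against 7691 CPM in basal TTX and 2715 CPM in basal, and none of the 8 was at 0. Oligodendrocyte lineage markers summed to 3200 CPM (2928 to 3644), against 2083 and 893 CPM. Neuron markers summed to 2913 CPM (2693 to 3211), the lowest of any group in the experiment. Per 1000 CPM of neuron markers, Arc was 11.9 ± 1.27 at 180 min, a ratio of 4.37 to basal TTX and of 2.09 to basal, where the means of Arc itself gave 2.69 and 1.10. On that measure the group at 180 min, from 10.4 to 12.7, did not lie below the group at 45 min, at 9.36 and 10.4. The part of these shifts in the Arc values was not tested.

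The responses were then compared as differences of log2 fold changes, each stimulus against its own control. At 15 min the response to TTXw was 7.29-fold smaller than that to Bic (log2 -2.87, SE 0.32, adjusted p = 5.83e-07, edgeR; 1.36% of genes called in this direction). At 45 min it was 11-fold smaller (-3.46, SE 0.31, adjusted p = 1.75e-09, edgeR; 0.998% called), and at 180 min 3.35-fold smaller (-1.74, SE 0.30, adjusted p = 0.000113, edgeR; 5.34% called). Against KCl, it was 8.60-fold smaller at 15 min (-3.10, SE 0.32, adjusted p = 6.18e-08, edgeR; 2.5% called). At the later times the difference from KCl did not pass, at 0.30 for 45 min (-0.31 to 0.92) and -0.11 for 180 min (-0.75 to 0.52). The controls differ in level, and at 45 min the mean level was 94.6 CPM with KCl and 47.2 CPM with TTXw. Per 1000 CPM of neuron markers, Arc at 180 min was 4.37 times its control with TTXw, 8.36 times with Bic and 2.61 times with KCl. On that measure TTXw lay below Bic and above KCl. The part of the marker shifts in these differences was not tested.

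**Figure D3:**
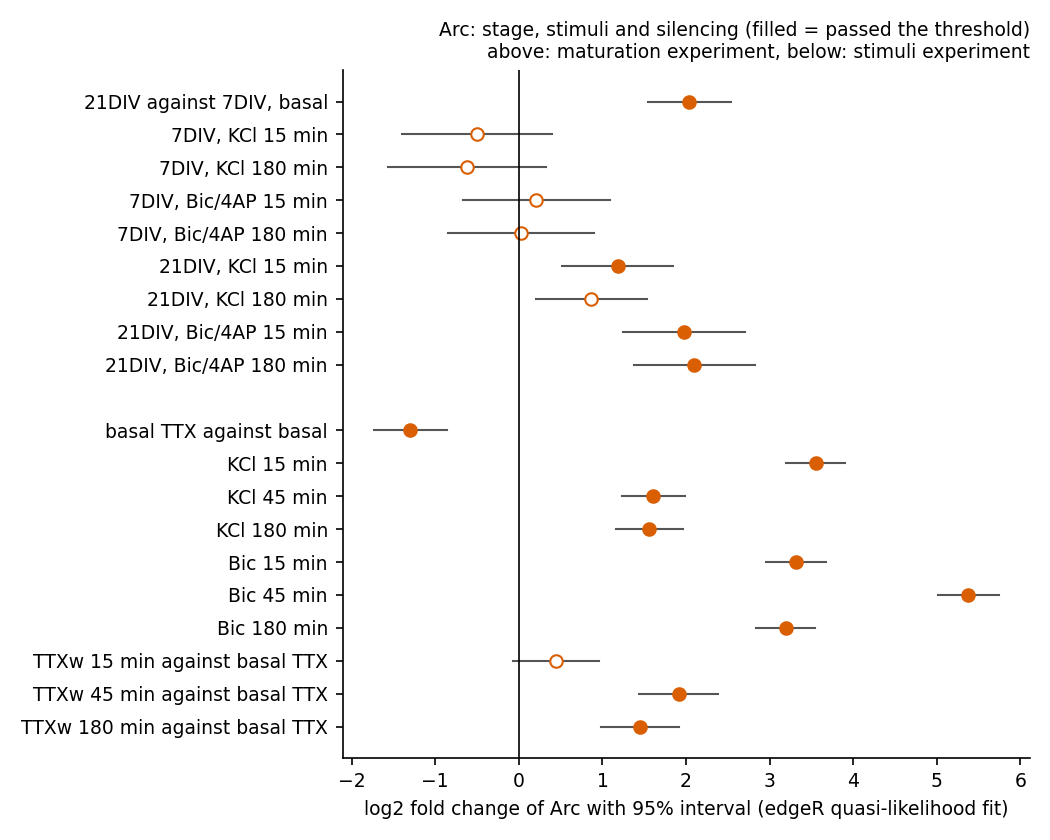
Log2 fold change of Arc in each comparison against a control, with its 95% interval, in the maturation experiment (above) and the stimuli experiment (below); filled points passed the threshold and open ones did not. The intervals at 7DIV all include 0, and Bic at 45 min lies farthest out at 5.38.

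In order of mean level, the 11 conditions of the stimuli experiment ran from basal TTX through TTXw 15 min, basal, TTXw 180 min, TTXw 45 min, KCl 180 min, KCl 45 min, Bic 180 min, Bic 15 min and KCl 15 min to Bic 45 min. Of the 10 pairs of neighbours, 4 overlapped, namely basal with TTXw 180 min, KCl 180 min with KCl 45 min, Bic 180 min with Bic 15 min, and Bic 15 min with KCl 15 min. The other 6 stood apart, and the widest step, a factor of 3.55, was from KCl 15 min to Bic 45 min. The narrowest gap was between basal TTX and TTXw 15 min, whose nearest samples had 13.9 and 14.1 CPM. That gap is smaller than the counting error of either sample, and the difference between these groups was not called.

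Mature basal neurons and KCl were part of both experiments, at 23 DIV and 21 DIV by the sample titles, so their values can be set side by side, without a test. Basal Arc was 85.1 CPM in the maturation experiment and 31.2 CPM in the stimuli experiment. KCl for 15 min came with 2.27-fold and 11.7-fold, and for 180 min with 1.82-fold and 2.95-fold, in that order. Bicuculline differed in kind, being given with 4-aminopyridine in the former and alone in the latter. It came with 3.93-fold and 9.92-fold at 15 min and with 4.28-fold and 9.14-fold at 180 min.

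Other activity-regulated genes were compared with Arc from a list of 31 immediate early and later genes, of which 30 were tested. The list holds Gadd45g, Ptgs2 and Rasl11a, which the study grouped with Arc on these samples, so their likeness to it is not independent evidence. The study's criterion was a pattern matching peaks at 15 min of KCl, 45 min of Bic and 180 min of TTXw. For Arc with TTXw, the mean level here was 47.2 CPM at 45 min and 34.3 CPM at 180 min, a difference that was not called. In the stimuli experiment, Arc exceeded all 30 in fold change with Bic at 15 and 45 min and with KCl at 15 and 45 min. The number that rose was 20, 24 and 23 with Bic at 15, 45 and 180 min, with median log2 fold changes of 0.99, 2.19 and 1.44, where the median of all genes was -0.01 each time and 2.4%, 4.5% and 0.69% of all genes were called higher. With KCl it was 18, 7 and 11, with medians of 0.84, 0.46 and 0.58, where 4.53%, 0.607% and 0.507% of all genes were called higher. The largest of those at 45 min of Bic were Ccn1, a secreted matrix protein (3.84), and the transcription factors Npas4 (3.37) and Fosb (3.30), with Gadd45g, a stress-response gene, at 3.12.

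In the other settings more of the list lay above Arc. With TTXw, 13 and 17 of the 30 rose at 45 and 180 min (medians 1.28 and 1.2), where 0.349% and 7.33% of all genes were called higher, and 12 and 13 had a higher fold change than Arc. Fos rose by 4.15, Klf4 by 3.67, Fosb by 3.58 and Nr4a1 by 3.36 at 45 min, all transcription factors, beside 1.91 for Arc. With Bic/4AP at 180 min in 21DIV neurons, 26 of the 30 rose (median 2.29, all genes -0.02; 7.39% of all genes called higher) and 17 exceeded Arc, led by Atf3 at 5.00 and Klf4 at 4.4. In 21DIV neurons, 20 rose with KCl at 180 min (median 1.57; 2.98% of all genes called higher), and 20 of the 30 had a higher fold change than Arc.

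Members of this list were called in both directions with stage. Between basal samples at 7DIV and 21DIV, 5 of 29 tested genes rose and 11 fell, with a median log2 change of -0.35, where 18.2% of all genes were called higher and 14.9% lower, so that the share that rose was near that of all genes. Ptgs2 rose by 3.37 and Rasl11a, a small GTPase, by 2.04, which is the value of Arc. The nuclear receptors Nr4a2 and Nr4a3 had log2 changes of -2.89 and -2.80, and Fosb fell by 2.85. Arc rose with stage at rest, while Nr4a2, Nr4a3 and Fosb fell. Egr3, another transcription factor gene of the list, rose as Arc did.

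**Figure D4:**
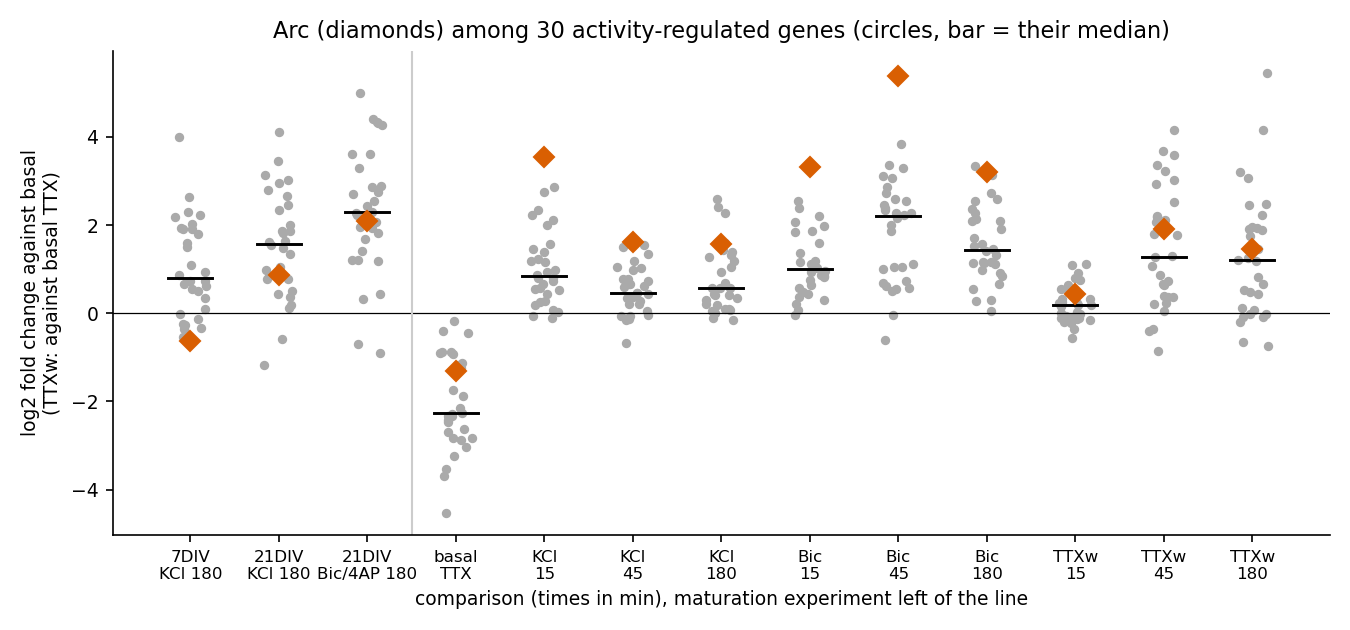
Log2 fold changes of 30 activity-regulated genes (grey circles, with a bar at their median) and of Arc (diamonds) against basal, or against basal TTX for TTXw, with 3 comparisons of the maturation experiment left of the line and those of the stimuli experiment right of it. Arc lies above all 30 others with Bic at 15 and 45 min and KCl at 15 and 45 min in the stimuli experiment, and below all of them with KCl at 180 min in 7DIV neurons.

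Of 13 genes whose products regulate Arc transcription, 12 were tested with stage at rest, and 2 of these rose, the coactivator gene Mrtfb (1.88) and Egr3 (1.35), with a list median of 0.28. That share is near the 18.2% of all genes called higher. With 21DIV Bic/4AP at 180 min, 1 of 13 rose (Egr1, by 1.95) and 6 fell (median -0.62, all genes -0.02), among them Mrtfb (-1.14), Srf (-1.11), Crtc1 (-1.11) and Mef2a (-0.92), where 7.39% of all genes were called higher and 6.83% lower. KCl at 15 min lowered Egr3, Srf and Crebbp in 21DIV neurons, by 1.15, 0.92 and 0.82, which is 3 of 13 tested, where 3.01% of all genes were called lower. In the stimuli experiment, 3 of 12 passed at 45 min of Bic and 2 at 15 min of KCl, all upward, with medians of 0.18 and 0.15, where 4.5% and 4.53% of all genes were called higher. Bic at 45 min raised Egr3 by 3.07, Egr1 by 2.00 and Srf by 0.96, and KCl at 15 min raised Egr3 by 2.22 and Srf by 1.00. Egr1 fell by 1.73 under TTX and rose by 3.03 at 45 min of TTXw, whereas Elk1, a partner of SRF, rose by 1.53 under TTX.

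Partners of the Arc protein at the synapse and in the nucleus changed with stage at rest, where 8 of 17 tested were higher at 21DIV and 1 was lower (median 0.31, all genes 0.0095), beside 18.2% and 14.9% of all genes. Camk2a, a kinase subunit of the postsynaptic density, rose by 2.84, the nuclear body gene Pml by 1.74, Dlg4, which encodes the scaffold PSD-95, by 1.41 and Iqsec2 by 1.4, while Dbn1, the drebrin gene, fell by 1.11. Of 18 tested in the stimuli experiment, Camk2a was the only one to pass with Bic alone, by 0.97, 1.10 and 1.45 at 15, 45 and 180 min. In these comparisons, 2.4%, 4.5% and 0.69% of all genes were called higher, so at 45 min the share of the list was near that of all genes. In 21DIV neurons of the maturation experiment, 6 of 18 fell with KCl at 15 min (median -0.28) and 4 with Bic/4AP at 180 min (median -0.08), where 3.01% and 6.83% of all genes were called lower. Camk2a fell by 1.06 with KCl at 15 min, and Wasf1, an actin regulator, fell by 0.90 in that comparison and by 1.27 with Bic/4AP at 180 min.

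Of 12 genes for the transport, translation and decay of Arc mRNA, 1 rose and 3 fell with stage at rest (median -0.26), so 4 of 12 passed, beside 18.2% of all genes called higher and 14.9% lower, which together is about the same share. Hnrnpa2b1 (-0.99), Stau1 (-0.94) and Stau2 (-0.60), whose proteins bind and carry mRNA, fell between 7DIV and 21DIV at rest, and Pura (0.72) rose. KCl at 15 min in the stimuli experiment raised 3 of the 12 (median 0.30, all genes -0.01; 4.53% of all genes called higher), Fmr1 by 1.27, Hnrnpa2b1 by 0.75 and the cap-binding Eif4e by 0.66. Of the 4 genes for the turnover of Arc protein, Gsk3b, a kinase, was the only one to pass in any of the 47 comparisons. It did so with stage at rest (-0.66), where 14.9% of all genes were called lower.

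Of 17 other genes that come from retrotransposon gag sequences, as Arc does, 9 reached the level needed for a test, and with stage at rest 1 rose and 2 fell (median -0.49), beside 18.2% and 14.9% of all genes called higher and lower, so that the list was called about as often as all genes were. Rtl9 rose by 1.37, and Pnma1 and Peg10 fell by 2.53 and 0.98. With Bic/4AP at 180 min in 21DIV neurons, Peg10 rose by 1.36 and Zcchc12 by 0.81 while Rtl6 fell by 0.92, beside 7.39% and 6.83% of all genes. In the stimuli experiment, Zcchc12 fell by 0.67 and 0.62 with Bic at 15 and 45 min, by 0.60 with KCl at 15 min and by 0.89 at 180 min of TTXw.

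The genes most like Arc were sought over all 8430 genes of sufficient level in both experiments, as the Pearson correlation of log2 CPM over the 10 and the 11 condition means, keeping the lower of both values. The conditions share libraries, controls and the step between stages, so these values are a description. Ankrd33b came first at 0.93, followed by Rasl11a (0.92), Arpp19 (0.92), Higd1a (0.92) and Adrb1, a beta-adrenergic receptor gene (0.91). The correlation compares shape and not size. Over the conditions of the stimuli experiment, Arc spanned 6.55 on the log2 scale, Rasl11a 4.12, Adrb1 2.15, Ankrd33b 1.75, Arpp19 0.90 and Higd1a 0.79.

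Calls per gene differed accordingly. Of 47 comparisons, Arc was called in 24, Ankrd33b in 12, Rasl11a in 12, Adrb1 in 10, Higd1a in 1 and Arpp19 in 0. All 12 calls of Ankrd33b, 10 of Rasl11a and 8 of Adrb1 fell together with a call of Arc in the same direction. These genes were picked for their likeness to Arc on the same samples, so shared calls are not independent evidence. Under TTX, where Arc fell, Ankrd33b was not called (log2 -0.016). With Bic at 45 min, Rasl11a rose by 2.33, Ankrd33b by 1.66 and Adrb1 by 0.90 on the log2 scale. All of Higd1a (2.11), Ankrd33b (2.22), Rasl11a (2.04) and Adrb1 (1.57) were also higher at 21DIV than at 7DIV at rest. With KCl or Bic/4AP against basal in 21DIV neurons, Rasl11a was the only one of these genes called, by 1.81 with Bic/4AP at 180 min. In that comparison Arc rose by 2.10, while Arpp19 (0.57), Ankrd33b (-0.13), Higd1a (-0.21) and Adrb1 (-0.42) were not called.

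**Figure D5:**
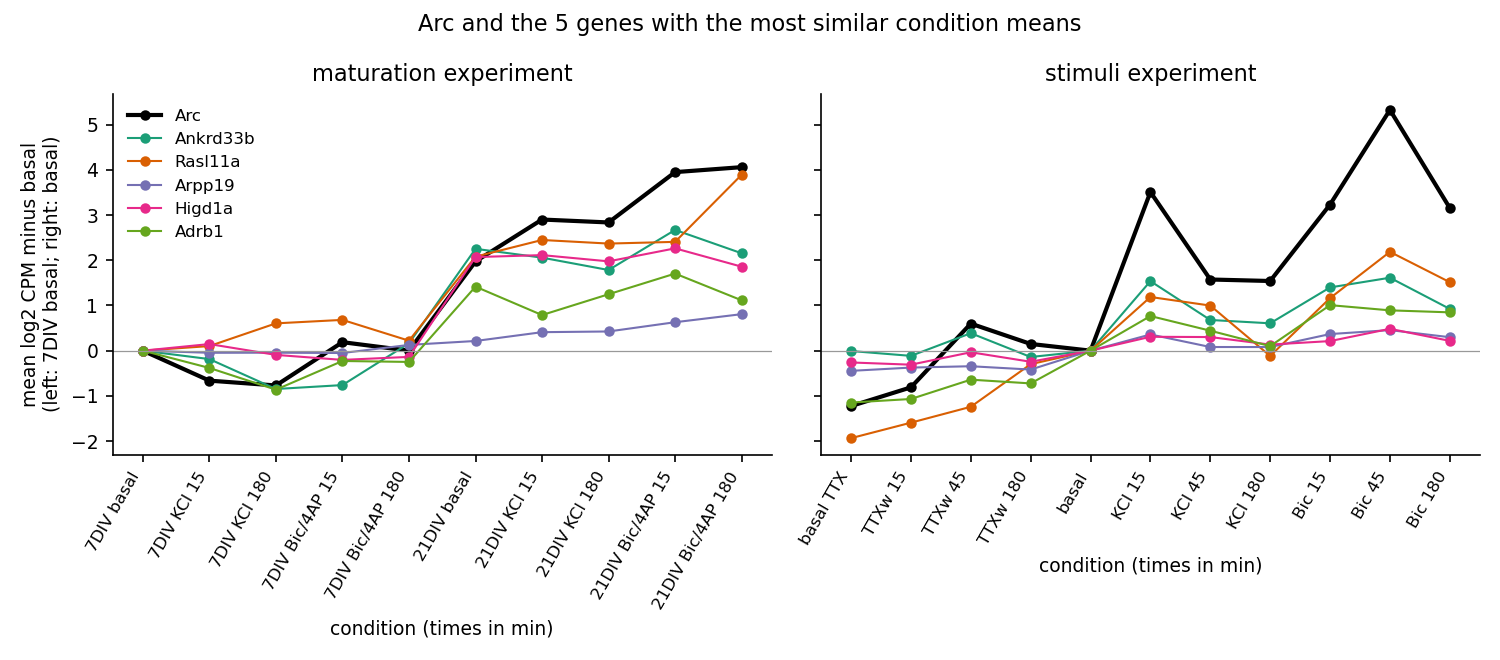
Condition means of log2 CPM, each minus the basal mean of 7DIV neurons (left, maturation experiment) or of basal neurons (right, stimuli experiment), for Arc and the 5 genes with the most similar pattern. Lines join the conditions of 1 gene in a fixed order, and among these 6 genes Arc has the widest range in both experiments, 4.83 and 6.55 on the log2 scale.

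Neighbours of Arc on chromosome 15 were read out to see whether the locus moved as a whole. The nearest tested genes were Adgrb1, Ptp4a3 and Slc45a4 at lower coordinates, at distances of 79.6, 910.3 and 1023 kb, and Jrk, Them6 and Lynx1 at higher ones, at 29.8, 48.7 and 75.3 kb. With stage at rest, 5 of the 6 rose together with Arc, by 3.42 for Lynx1 and 2.80 for Them6, by 0.83 for Slc45a4, by 0.79 for Adgrb1 and by 0.68 for Ptp4a3 on the log2 scale, where 18.2% of all genes were called higher. Lynx1, Them6 and Jrk were low in the maturation experiment, with means of 17.6, 12.6 and 6.95 CPM. Their lowest samples had 1.25, 1.02 and 0.85 CPM, so their log2 changes rest on few counts. No neighbour was called higher with Bic, KCl or TTXw against its control. With Bic/4AP at 15 min in 21DIV neurons, Adgrb1 had a log2 change of 1.07 that was not called (SE 0.27, adjusted p = 0.345, edgeR). It was called higher with Bic/4AP than with KCl at that time and stage, by 0.94. Slc45a4 fell by 0.70 and 0.60 with Bic at 15 and 45 min, and Jrk fell by 1.71 with KCl at 180 min in 21DIV neurons. With Bic/4AP at 180 min in 21DIV neurons, 3 of the 6 were called lower, as Jrk fell by 2.83, Slc45a4 fell by 0.95 and Ptp4a3 fell by 0.75, where 6.83% of all genes were called lower. Lynx1 fell by 0.69 at 180 min of TTXw.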

How the data were processed

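3′ ends of polyadenylated RNA from primary forebrain neurons were sequenced by CEL-Seq2 in 28 samples (maturation experiment) and 27 samples (stimuli experiment). Per the paper's methods and the submitters' processing notes, the authors aligned reads with STAR to mm10 and counted them per RefSeq transcript with the End Sequence Analysis Toolkit. The deposited values are whole-number counts, not normalized. Whether reads were collapsed by their molecular identifiers is not given in the sources used here, and the counts do not settle it.

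Accessions were matched to symbols without their version numbers, for 80.8% of 97700 and 80.9% of 96722 transcripts. Unmatched transcripts held 18.5% and 19.3% of counts and were left out. Counts of the most abundant transcript per gene were filtered at 5 CPM in at least 2 samples, scaled by TMM and fitted with edgeR 4.0.16 (R 4.3.3) by quasi-likelihood, with 1 term per group and all samples of an experiment in the fit, except the stage comparison at rest, which used its own 6 samples. P-values were adjusted by Benjamini-Hochberg over all genes of a comparison, and 47 comparisons were made. Tables and figures were made with Python 3.11.15. The test was checked on counts simulated with known changes and with the spread that edgeR estimated here. That check shares the assumptions of the test. DESeq2 1.42.0 was an alternative, beside other scaling, filters, thinning, summed transcripts, the samples in the fit and a replicate block. Summing adds the identical counts of both Arc transcripts. Over all genes the summed counts were 3.13 and 3.29 times those kept in the maturation and the stimuli experiment.

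Samples were grouped by their GEO titles. The labels do not say whether replicates are separate cultures, so p-values measure the spread between these samples, which may be technical. Of 48 replicate pairs, none agreed within sampling noise (chi-square per degree of freedom 2.17 to 20.2). Intervals of counts are exact Clopper-Pearson at 95% and cover counting error only.

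Arc and the gene lists were chosen with earlier results of these data known. Other genes are named by rule, as the 5 most like Arc in pattern, up to 4 of each list with the largest absolute change among those that passed in a comparison, and the 3 nearest tested genes on each side. Members of the activity-regulated list that the study grouped with Arc (Gadd45g, Ptgs2, Rasl11a), Fos and Npas4 beside the 7DIV result, and Dbn1 were named outside that rule, after their values were seen. Sequences of Arc were not used here.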

Additional observations from a re-analysis of the deposited data

Results flagged for a closer look

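A total of 5 results drew attention because the response of Arc differed between stages or stimuli in a test of the difference itself. The response to Bic/4AP at 180 min was larger at 21DIV than at 7DIV, by 2.07 on the log2 scale. The response to TTXw was smaller than that to Bic at all 3 times, with log2 differences of -2.87 at 15 min, -3.46 at 45 min and -1.74 at 180 min. It was also smaller than that to KCl at 15 min, with a log2 difference of -3.10. Adjusted p-values and replicate values are given with each comparison above. The marker shifts at 180 min of TTXw are given there too, and their part was not tested. Bic and KCl were set against basal samples and TTXw against silenced ones, so the control differs together with the stimulus and the share of each cannot be told apart. Basal TTX, with 4 samples, was the 1 group large enough to be examined for an outlying sample, and none was found.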

How the results depend on the processing

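Of 47 results, 24 were called, and each was recomputed under 10 alternatives and without each replicate in turn. Under the former, 449 values kept their direction and side of the threshold, 7 reversed, 9 passed that had not, and 5 no longer passed. The causes were not tested. For 7DIV Bic/4AP at 180 min, near 0, the log2 value reversed to -0.015 with the likelihood ratio test, -0.020 with DESeq2 and -0.0074 with counts summed over transcripts. Thinning to the smallest library reversed KCl 180 against 15 min at 7DIV (0.099) and KCl 180 against 45 min in the stimuli experiment (0.14). The likelihood ratio test passed the stage difference of KCl at 15 min (1.77). Without the filter on low counts, 21DIV KCl at 180 min passed (0.88), as did the stage differences of KCl at 15 min (1.64) and 180 min (1.47) and Bic/4AP at 15 min (1.70), and 21DIV Bic/4AP against KCl at 15 min (0.75) and 180 min (1.22). Summed transcripts ended the calls of 21DIV KCl at 15 min (1.18), 21DIV Bic/4AP at 15 min (1.98) and the stage difference of Bic/4AP at 180 min (2.10). Fitting the compared groups only ended 21DIV KCl at 15 min (1.19) and passed KCl at 180 min (0.88), and DESeq2 ended 21DIV KCl at 15 min (1.2).

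Same-numbered samples did not deviate together (correlations -0.25 to 0.11 in the maturation and -0.09 to 0.10 in the stimuli experiment), so the numbers are not a pairing. With the replicate block, 7DIV Bic/4AP reversed to -0.016 at 15 min and -0.20 at 180 min, and TTXw 180 against 45 min passed (-0.59). The block changed no other call.

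Without each replicate in turn, 285 values were unchanged in direction and side of the threshold, 11 reversed, 2 passed and 15 no longer passed. Ranges for results with such changes were -0.39 to 0.43 for KCl 180 against 15 min at 7DIV and -0.69 to 0.40 at 21DIV, where 0.40 is without KCl 15 min replicate 2. They were -0.037 to 0.47 for Bic/4AP at 15 min and -0.22 to 0.28 at 180 min at 7DIV, -0.13 to 0.32 for 21DIV Bic/4AP 180 against 15 min, 0.47 to 1.56 for 21DIV KCl at 15 min and 1.80 to 2.14 for 21DIV Bic/4AP at 15 min. Stage differences ranged from 0.97 to 2.23 for KCl at 15 min (passing without 21DIV KCl 15 min replicate 3, at 2.06) and from 1.81 to 2.32 for Bic/4AP at 180 min. For 21DIV Bic/4AP against KCl at 15 min the range was 0.41 to 1.51, passing without KCl replicate 2. In the stimuli experiment, ranges were -0.59 to 0.014 for Bic against KCl at 15 min, -0.24 to 0.015 for TTXw against KCl at 180 min and -0.25 to 0.15 for KCl 180 against 45 min. Where this left 1 sample in a group, that sample was assumed to vary like the others. All calls of the stimuli experiment, the stage comparison at rest and 21DIV Bic/4AP at 180 min (1.85 to 2.30) held without any 1 replicate. Arc counts as low as 14 limit the precision of the 7DIV comparisons.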
